A study of Mus musculus with 12 samples.

Results

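Stem cells of a mouse blast crisis chronic myeloid leukaemia (bcCML) were compared with stem cells of a mouse acute myeloid leukaemia (AML) where both came from Msi2 mutant donors. The comparison used the 6 arrays labelled Msi2 mutant, 3 of each leukaemia, of 12 arrays in all, and the other 6 held the same 2 leukaemias from wild-type donors. AML was driven by MLL-AF9 and its cells were sorted as Lin- Sca1- ckit+. In bcCML the drivers were BCR-ABL and NUP98-HOXA9 together, and cells were sorted as Lin-, with no gate on Sca1 or Kit. In each case the oncogenes were put by infection into stem and progenitor cells (KLS), here of Msi2 Gt/Gt mice, and the infected cells were transplanted. Both mutant groups thus carried the gene trap of strain B6;CB-Msi2Gt(pU-21T)2Imeg, no mouse was treated, and the age of the mice is not given in the sources used here. The question was what distinguishes the leukaemias when neither has an intact Msi2 gene.

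Msi2 encodes Musashi-2, an RNA-binding protein of stem and progenitor cells that binds messenger RNAs such as that of Numb. MLL-AF9 is a fusion of a chromatin regulator that keeps Hoxa genes and Meis1 active and arrests cells at a granulocyte and monocyte progenitor stage. BCR-ABL is an active tyrosine kinase that signals through Stat5 and the Ras pathway, and NUP98-HOXA9 is a fusion that adds a HOXA9 homeodomain.

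Total RNA was hybridised to Affymetrix arrays, and a gene's level is the deposited intensity of its brightest probe set, the one with the highest mean log2 over the 6 mutant arrays. The lowest value on each of the 12 arrays was 4.49 units, and a probe set counted as measured above 16 units. Of 45037 probe sets, 34945 carried 1 gene symbol, 33584 of those were autosomal and 17954 of these were above 16 units on at least 3 of the 6 mutant arrays, giving 10062 genes. Differences are log2 values, mutant bcCML minus mutant AML, ± SE from limma. A gene was called at an adjusted p (limma, Benjamini-Hochberg over all probe sets tested) under 0.05. The titles name the 3 arrays of a group biological replicates without naming the mice, so the p-values measure the spread between these samples.

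The 6 arrays had medians of 13.2 to 13.8 units, and correlations within a group were 0.944 to 0.980 over all 12 arrays. Mutant AML array 1 stood apart from the other mutant AML arrays. The first principal component held 82.8% of the variance and separated the leukaemias, and the second, with 7.91%, placed mutant AML array 1 at 68.1 and the other 5 arrays between -43.2 and 3.94. The 2 leukaemias also differed in sex-linked RNA, in both genotypes: the 3 Xist probe sets read 2489.8 to 7534 units on the mutant AML arrays and at most 89.0 on the mutant bcCML arrays, while Eif2s3y, a Y-linked gene, read 5.34 to 5.42 and 218 to 2844. The driving oncogenes, the sorting gate and this sex-linked difference cannot be told apart as sources of any difference below. Nor can fewer cells of a type and less RNA per cell.

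The sorting marker Kit, the stem cell factor receptor, read 435, 244 and 242 units on mutant AML arrays 1, 2 and 3, and 261, 184 and 78.2 on mutant bcCML arrays 1, 2 and 3, the order used throughout. Its log2 difference was -0.93 ± 0.58 (adjusted p = 0.227, limma), and the groups overlapped. Cd34, a sialomucin of progenitors, read 312, 101 and 101 in mutant AML and 1363, 685 and 507 in mutant bcCML. The groups did not overlap, and Cd34 was higher in mutant bcCML by 2.41 ± 0.68 (adjusted p = 0.0151, limma). That call ended without mutant AML array 2 or 3 or mutant bcCML array 1, with an adjusted p up to 0.0582. Kit and Cd34 were above 16 units on each of the 6 arrays.

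Msi2 RNA itself was higher in mutant bcCML than in mutant AML on each of the 5 Msi2 probe sets tested, of 8 on the array. On the brightest of them the 3 mutant AML arrays read 52.9, 69.1 and 86.9 units and the 3 mutant bcCML arrays 487, 721 and 608. That is 69.6 ± 17 (SD, n = 3) against 605 ± 117, a log2 difference of 3.13 ± 0.34 (adjusted p = 4.18e-05, limma). The mutant bcCML arrays also lay above the wild-type AML arrays on this probe set, which read 325, 181 and 430.3, and below the wild-type bcCML arrays, at 2583, 4319 and 4579. On another Msi2 probe set the mutant AML arrays fell below the measured range, at 10.2, 10.9 and 9.53 units, and the mutant bcCML arrays read 891, 1403 and 1584. So Msi2 mutant is the genotype of both groups, and Msi2 RNA was measured in mutant bcCML. The sources used here do not place these probe sets relative to the gene trap, so the readings do not show how much intact Msi2 RNA was left. Msi1, the other Musashi gene, went the opposite way, with 168, 66.6 and 57.5 units in mutant AML and 29.7, 11.9 and 17 in mutant bcCML, a log2 difference of -2.25 ± 0.55 (adjusted p = 0.00719, limma). With the mean of a gene's probe sets the differences were 4.86 for Msi2 and -1.28 for Msi1.

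Of the 10062 genes, 2313 were higher in mutant bcCML (23%) and 2197 were lower (21.8%), 44.8% in either direction. More than 2-fold differences made up 1385 of the higher and 1450 of the lower calls, and more than 8-fold differences 441 and 458. The median log2 difference over all genes was 0.03, its median size without sign was 0.57, and the median SE was 0.24. In 303 of the genes called higher all 3 mutant AML arrays were at or below 16 units, and in 262 of those called lower all 3 mutant bcCML arrays were. For these a fold is a lower bound, taken against 16 units and written "at least". Such a gene passed the filter only because all 3 arrays of the other group were above 16 units. Its direction and lack of overlap were thus fixed by the filter, and its adjusted p adds no support for the direction. Of all 10062 genes, 312 were of this kind in mutant AML and 267 in mutant bcCML. Where only some arrays of a group were above 16 units, the difference uses the dim readings as deposited, so its size is uncertain. This holds on the dim side of Cish, Hemgn, Tox, Perp and Gbp2 (1 of 3 mutant AML arrays above 16 units) and of Fbp1, Ikzf3 and Trem3 (1 of 3 mutant bcCML arrays). Above 16 units on 2 of 3 mutant AML arrays were Aff3, Cdkn2a, Dnajc6, Gfi1b, Lat, Lgals3bp, Mllt3, Ms4a2, Prxl2a, Socs2 and Tspan3. Above 16 units on 2 of 3 mutant bcCML arrays were Cbx8, Hk3, Igsf6, Lin28a, Ly86, Msi1, Pram1, Sgms2 and Stfa2l1. The 3 arrays of each group did not overlap in 28.8% of genes (higher) and 26.3% (lower), or 55.1% in either direction, and the counts below are to be read against these shares.

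BCR-ABL and Stat5 signalling genes made up the group tied most directly to the oncogene that mutant bcCML carries and mutant AML lacks. Of 22 measured members 9 were higher and 1 lower, with a median log2 difference of 0.60 against 0.03 over all genes. Without mutant AML array 1 the lower count was 3, and without wild-type bcCML array 2 it was 2. Cish, a feedback inhibitor induced by Stat5, read 17.6, 7.93 and 11.1 units in mutant AML and 2776, 3211 and 3903 in mutant bcCML. Its difference was 8.14 ± 0.26 (adjusted p = 5.01e-09, limma), with 1 of 3 mutant AML arrays above 16 units. Socs2, another Stat5-induced suppressor of cytokine signalling, read 15.3, 19.9 and 19.3 and 5331, 6263 and 7952, a difference of 8.48 ± 0.26 (adjusted p = 3.31e-09, limma), or 5.19 with the mean of its probe sets. Both genes were near the edge of the measured range on each mutant AML array and bright on each mutant bcCML array. The Sprouty genes, which restrain Ras signalling, split. Spry1 read 4.71, 4.51 and 4.51 and 240.02, 88.5 and 171, at least 9.61-fold higher in mutant bcCML (adjusted p = 6.68e-07, limma), while Spry2 read 2526, 2011 and 2223 and 336, 259.7 and 191, lower by 8.79-fold (adjusted p = 1.87e-06, limma). Abl1 and Bcr were not called, with differences of -0.03 ± 0.21 (adjusted p = 0.938, limma) and 0.71 ± 0.38 (adjusted p = 0.155, limma), and the difference of Abl1 turned positive under 6 of 28 alternatives. Whether their probe sets also read RNA of the BCR-ABL fusion was not tested.

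Homeobox genes and their cofactors went in both directions: of 14 measured, 6 were higher and 4 lower, with a median of 0.19. Hoxa9, a leukaemia homeobox gene, was not called: 4447, 4289 and 4527 units in mutant AML and 3992, 3352 and 3786 in mutant bcCML, a difference of -0.26 ± 0.15 (adjusted p = 0.2, limma). Its neighbour Hoxa10 did differ, at 2117, 1834 and 2436 and 226, 476 and 538, 5.47-fold lower in mutant bcCML (difference -2.45 ± 0.31, adjusted p = 0.00013, limma). The groups stood clear of each other for Hoxa10 and lay close together for Hoxa9. Whether the Hoxa9 probe set also reads RNA of the NUP98-HOXA9 fusion was not tested. In the Hoxb cluster, Hoxb5 read 6.75, 6.76 and 7.62 against 1884, 1161 and 1559, at least 94.1-fold higher in mutant bcCML (adjusted p = 2.77e-08, limma), and Hoxb6 read 4.73, 4.55 and 4.56 against 252, 299 and 340.1, at least 18.4-fold higher (adjusted p = 1.72e-09, limma). Neither Hoxb gene was measured on any mutant AML array. Of the cofactors that bind DNA with Hox proteins, Pbx3 was higher, at 927, 536 and 617 and 3607, 3149 and 3825 (difference 2.38 ± 0.25, adjusted p = 3.18e-05, limma). Pknox1 and Meis1 were lower, by -1.96 ± 0.19 (adjusted p = 1.54e-05, limma) and -0.73 ± 0.19 (adjusted p = 0.00911, limma). Meis1 lost its call in the 6 mutant arrays alone without mutant AML array 1 (adjusted p = 0.0539, limma).

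Genes described as targets of MLL fusions were not uniformly higher in the MLL-AF9 leukaemia: of 20 measured, 4 were higher in mutant bcCML and 8 lower, with a median of -0.39. Without mutant AML array 1 it was 5 that were lower, as it was without mutant bcCML array 2 or 3. Mecom, which encodes the zinc finger regulator Evi1, read 1194, 411 and 2444 in mutant AML and 4170.4, 4557 and 6856 in mutant bcCML, a difference of 2.25 ± 0.68 (adjusted p = 0.0205, limma) that was lost without mutant AML array 2 or mutant bcCML array 3 (adjusted p up to 0.0739). Bcl2, the survival protein gene, was higher too, at 146, 1051 and 780.4 and 3887, 3335 and 4056 (difference 2.93 ± 0.61, adjusted p = 0.00304, limma). In the other direction, Lmo2, a bridging factor of blood progenitors, read 10060.1, 9351 and 9952 and 6202, 5131 and 5063 (difference -0.85 ± 0.13, adjusted p = 0.000508, limma). Zeb2, a zinc finger repressor, read 1609.8, 4503 and 4116 and 1249, 436 and 386 (difference -2.38 ± 0.48, adjusted p = 0.00239, limma). Mutant AML array 1 was the lowest of its group for Bcl2 and Zeb2, and without it the difference of Bcl2 was 2.05. That of Mecom was 1.57 without mutant AML array 2 and 2.86 without array 3.

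**Figure D1:**
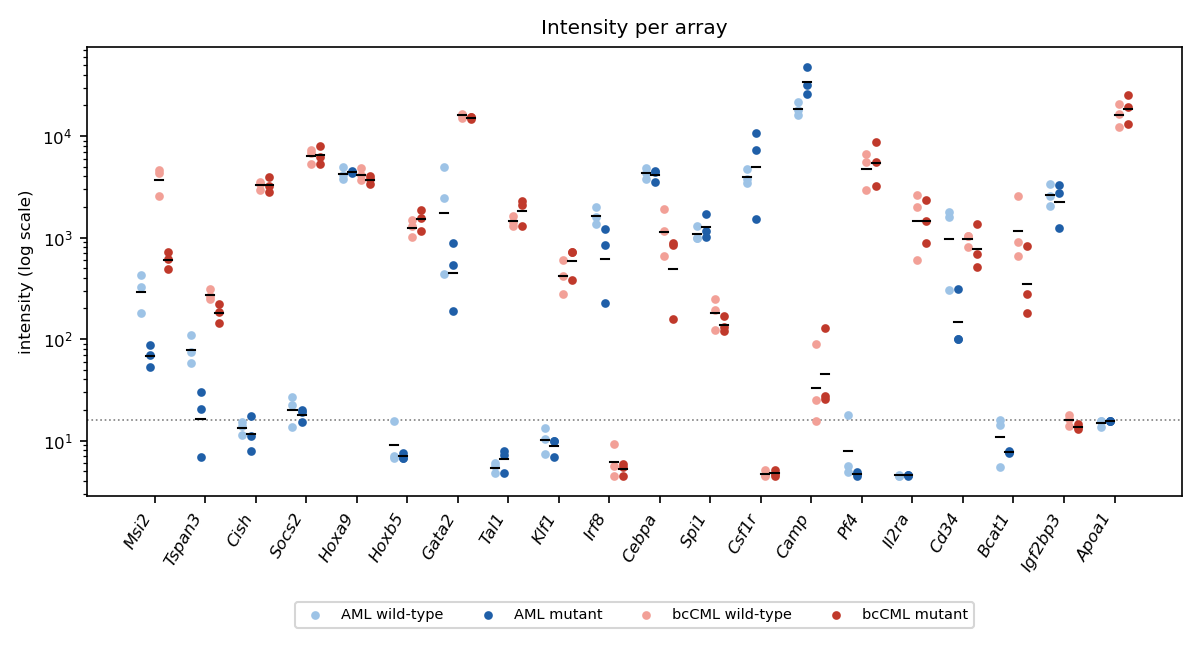
Intensity of 20 named genes on all 12 arrays, on a log axis; each point is 1 array, bars are geometric means of 3 arrays, and the dotted line marks 16 units. Cish and Socs2 lie at 2776 to 3903 and 5331 to 7952 units on the mutant bcCML arrays and at 7.93 to 17.6 and 15.3 to 19.9 on the mutant AML arrays, Hoxa9 lies close in all groups, and Csf1r is below 16 units on every mutant bcCML array.

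Transcription factors of granulocytes and monocytes were lower in mutant bcCML: 11 of 14 measured were lower and 0 higher, with a median of -2.65. Cebpa, which starts granulocyte development, read 3546, 4556 and 4457 in mutant AML and 883, 851 and 157 in mutant bcCML, a difference of -3.08 ± 0.59 (adjusted p = 0.00183, limma). Spi1, which encodes PU.1, read 1008, 1695 and 1161 and 131, 121 and 168, 9.06-fold lower (difference -3.18 ± 0.28, adjusted p = 8.41e-06, limma). Irf8, a monocyte and dendritic cell factor, read 224, 837 and 1226 and 4.53, 5.84 and 5.53, at least 38.3-fold lower (adjusted p = 3.1e-06, limma). Cebpa and Spi1 did not overlap between the groups, and Irf8 was below the measured range on each mutant bcCML array. The filter fixed the direction and lack of overlap of 2 of the 14, Irf8 and Cebpd, which were not measured on any mutant bcCML array. Gfi1, a repressor needed for neutrophils, read 4124, 3952 and 4276 and 171, 378 and 23.2, the mutant bcCML arrays lying far apart among themselves (difference -5.17 ± 0.81, adjusted p = 0.000506, limma). Cebpd was at least 21.8-fold lower (adjusted p = 1.11e-07, limma), Cebpb lower by 6.22-fold (adjusted p = 0.00129, limma) and Klf4 by 10.2-fold (adjusted p = 0.00408, limma). Irf4, Maf and Egr2 were lower as well, by 6.32-fold, 5.69-fold and 2.52-fold (adjusted p = 0.02, 0.0106 and 0.0243, limma). The calls of Irf4 and Egr2 ended without mutant AML array 2 or 3 or mutant bcCML array 1 or 3, with adjusted p-values up to 0.0774 and 0.08, and that of Maf ended with the 6 mutant arrays alone (adjusted p = 0.0529, limma). Klf4 read 286, 4349.7 and 1655 in mutant AML and 123, 107 and 148 in mutant bcCML, and Maf 124, 1190.2 and 558 and 92.5, 103 and 46.9, so that mutant AML arrays 1 and 2 were the lowest and the highest of their group for both. Without array 1 the differences were -4.43 for Klf4, -3.41 for Maf, -3.58 for Irf4 and -3.27 for Cebpb, and without array 2 they were -2.46, -1.78 and -2.05 for Klf4, Maf and Irf4. With the mean of its probe sets Klf4 differed by -2.66. Cebpa differed by -2.26 without mutant bcCML array 3, and Gfi1 by -4.02 without that array and -6.03 without mutant bcCML array 2.

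Genes of neutrophil granules showed some of the widest gaps. Of 20 measured genes of secondary and tertiary granules 18 were lower in mutant bcCML and 0 higher, with a median of -6.13, or -5.48 with the genes not measured in mutant bcCML at their bound. The filter fixed the direction of 7 of the 20, which were not measured on any mutant bcCML array. Their summed intensity was 159231 to 203707 units on the mutant AML arrays and 7328 to 10873 on the mutant bcCML arrays. Camp, the cathelicidin of secondary granules, read 47337, 26078 and 31879 and 27.7, 129 and 25.4, a difference of -9.56 ± 0.69 (adjusted p = 2.23e-06, limma). Ngp, a neutrophil granule protein, read 14806, 8154 and 9249.9 and 40.2, 148 and 42.2 (difference -7.36 ± 0.47, adjusted p = 8.07e-07, limma). The list and its sum also hold S100a9, a calcium-binding protein of neutrophils and monocytes. S100a9 read 36197, 35485 and 35143 and 458, 1106 and 549.6 (difference -5.77 ± 0.31, adjusted p = 2.43e-07, limma). Each mutant bcCML array was far below each mutant AML array for all 3 genes. Mutant bcCML array 2 was the highest of its group for Camp and Ngp, and without it their differences were -10.32 and -7.98. Chil3 read 19752, 18501 and 19262 and 199, 75.3 and 48.7 (adjusted p = 2.86e-05, limma), and Ltf, lactoferrin, 555, 201 and 136 and 8.14, 14.5 and 23 (adjusted p = 0.000156, limma). Cd177 and Olfm4 were not measured in mutant bcCML, being at least 177-fold and 118-fold lower (adjusted p = 2.99e-07 and 3.35e-08, limma).

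Cebp factors bind near many granule genes. The start regions shown were picked among genes of the secondary granule list called lower, which also holds S100a9. They were picked for holding a Cebp-like match, apart from Camp, which held none. Whether Cebp factors act on these genes was not tested. Sequences are from RefSeq on GRCm38.p6, the 250 bases before the annotated start of transcription, 5′ to 3′ on the gene's strand. Capitals mark matches to TTGCNNAA, a Cebp-like pattern searched on both strands, where N is any base.
S100a9 (chr3:90695722-90695971, minus strand): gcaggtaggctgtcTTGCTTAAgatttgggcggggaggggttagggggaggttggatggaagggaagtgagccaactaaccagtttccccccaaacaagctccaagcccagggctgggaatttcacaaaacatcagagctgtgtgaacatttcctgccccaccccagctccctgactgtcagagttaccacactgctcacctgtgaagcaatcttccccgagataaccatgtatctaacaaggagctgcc
Lcn2 (chr2:32387740-32387989, minus strand): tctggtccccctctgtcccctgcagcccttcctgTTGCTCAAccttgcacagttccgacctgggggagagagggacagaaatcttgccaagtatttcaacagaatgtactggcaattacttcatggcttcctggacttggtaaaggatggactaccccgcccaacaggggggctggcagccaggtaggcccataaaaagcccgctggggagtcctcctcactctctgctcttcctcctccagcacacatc
Ngp (chr9:110419558-110419807, plus strand): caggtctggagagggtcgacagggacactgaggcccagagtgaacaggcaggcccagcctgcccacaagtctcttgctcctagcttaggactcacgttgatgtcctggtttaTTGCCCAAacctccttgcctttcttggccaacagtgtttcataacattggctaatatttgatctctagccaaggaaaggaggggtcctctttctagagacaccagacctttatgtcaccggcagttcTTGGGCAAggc
Ltf (chr9:111019042-111019291, plus strand): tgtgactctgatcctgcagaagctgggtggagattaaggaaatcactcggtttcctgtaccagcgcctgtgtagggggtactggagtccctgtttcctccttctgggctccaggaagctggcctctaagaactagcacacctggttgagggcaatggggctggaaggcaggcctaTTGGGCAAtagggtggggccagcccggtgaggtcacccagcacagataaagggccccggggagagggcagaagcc
Camp (chr9:109849457-109849706, minus strand, no match): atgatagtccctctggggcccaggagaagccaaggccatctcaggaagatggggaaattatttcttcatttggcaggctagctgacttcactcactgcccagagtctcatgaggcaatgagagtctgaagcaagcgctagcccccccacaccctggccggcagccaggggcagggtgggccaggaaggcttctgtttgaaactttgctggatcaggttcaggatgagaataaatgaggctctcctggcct
Of the 15 genes of the secondary granule list called lower that had a promoter in the table, 4 (26.7%), S100a9 among them, held a match. The shares were 9.55% of 27025 promoters and 7.34% of the 8246 tested genes with one. The GATA pattern AGATAA, searched in the same way, matched the same number of the 15, against 10.3% of all promoters and 5.74% of the tested genes. The Stat5 pattern TTCNNNGAA matched 1 of the 15 (6.67%) and 0 of the 6 BCR-ABL and Stat5 genes called higher that had a promoter, against 7.18% and 5.89%. With 15 genes these shares are a description. The matches lay 229 bases before the start in S100a9, 209 in Lcn2, 131 and 4 in Ngp and 68 in Ltf, and a match of letters is not a binding site.

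Primary granule genes, made earlier in the granulocyte series, were lower in 11 and higher in 2 of 15 measured members, with a median of -3.60. The higher count was 1 without any one of 10 arrays, all but mutant AML array 2 and wild-type bcCML array 2. Their summed intensity was 204078 to 207277 units in mutant AML and 35996 to 54431 in mutant bcCML. Elane, neutrophil elastase, read 29066, 28651 and 26459 and 206, 621 and 118 (difference -6.83 ± 0.76, adjusted p = 4.89e-05, limma). Mpo, myeloperoxidase, was bright in both, at 26863, 25129 and 24771 and 6635, 7358 and 1569, and lower in mutant bcCML by -2.59 ± 0.84 (adjusted p = 0.0286, limma). Prtn3, proteinase 3, lay between, at 22328, 19686 and 22043 and 698, 1159.9 and 544 (difference -4.81 ± 0.47, adjusted p = 2.02e-05, limma). Fcnb, ficolin B, was below the measured range in mutant bcCML, at 5.35, 7.28 and 6.42 against 16881, 9514 and 7036, at least 651-fold lower (adjusted p = 1.98e-08, limma).

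Monocyte and macrophage genes followed the same direction, with 21 of 24 measured members lower and 0 higher, and a median of -4.75, or -3.70 with bounds. The filter fixed the direction of 9 of the 24, which were not measured on any mutant bcCML array. Csf1r, the receptor for macrophage colony-stimulating factor, read 1532, 10604 and 7242 units in mutant AML and 4.52, 4.74 and 5.08 in mutant bcCML, at least 306-fold lower (adjusted p = 2.64e-07, limma). F13a1, a coagulation factor subunit of monocytes, read 3702, 3318 and 2626 and 14.2, 10.01 and 11.9, at least 199-fold lower (adjusted p = 1.42e-07, limma). Ly86, a partner of a Toll-like receptor relative, read 779, 1386 and 1429 and 20.8, 10.6 and 16.1 (adjusted p = 4.7e-08, limma). Of the defining markers, Csf1r and Cd14 were near the floor on each mutant bcCML array, while Adgre1 read 89.2, 414 and 82.7 there. Itgam, the integrin also used as a lineage antigen in sorting, read 66.8, 86.6 and 48.8 in mutant AML and 4.52, 4.51 and 4.51 in mutant bcCML, at least 4.1-fold lower (adjusted p = 2.07e-07, limma). The summed intensity of the list was 50172 to 144185 in mutant AML and 6178 to 8243 in mutant bcCML. Mutant AML array 1 had the lowest sum of its group and the lowest Csf1r. It was still far above each mutant bcCML array.

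Erythroid and megakaryocyte genes went the other way. Of 15 measured erythroid genes 13 were higher in mutant bcCML and 0 lower, with a median of 3.64 (3.28 with bounds), and 1 was called lower without wild-type bcCML array 1. Of 17 megakaryocyte and platelet genes 11 were higher and 1 lower, with a median of 3.83 (2.96 with bounds). The filter fixed the direction of 7 of the 15 and 7 of the 17, which were not measured on any mutant AML array. Car1, a carbonic anhydrase of red cell precursors, read 4.57, 4.51 and 4.62 in mutant AML and 9266, 5193 and 3378 in mutant bcCML, at least 341-fold higher (adjusted p = 8.22e-08, limma). Epor, the erythropoietin receptor, read 4.5, 4.49 and 4.51 and 198, 143 and 129.9, at least 9.66-fold higher (adjusted p = 5.25e-06, limma). Pf4, platelet factor 4, read 4.66, 4.92 and 4.52 and 8669.5, 3239.8 and 5545, at least 336-fold higher (adjusted p = 1.22e-07, limma). F2r, the thrombin receptor, read 5.57, 5.07 and 5.5 and 12775, 12272 and 9319.8, at least 709-fold higher (adjusted p = 1.68e-11, limma). All 4 genes were near the floor on each mutant AML array. Itga2b, the megakaryocyte integrin CD41, read 8.1, 4.51 and 4.5 and 1231, 472 and 864, at least 49.6-fold higher (adjusted p = 2.43e-07, limma).

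Car2, another carbonic anhydrase, was more uneven in mutant AML, at 39, 52.1 and 483, against 16928, 17389 and 18458 in mutant bcCML (difference 7.47 ± 1.18, adjusted p = 0.000534, limma). Mutant AML array 3 held the highest value of its group and the groups did not overlap. The difference of Car2 was 8.61 without mutant AML array 3 and 6.79 without array 1. Hemgn, a nuclear protein of erythroid and progenitor cells, read 20.9, 5.44 and 5.35 and 1345, 647 and 782 (adjusted p = 3.25e-06, limma), and Rhag, a red cell membrane protein, was higher by at least 15.6-fold (adjusted p = 1.13e-05, limma). Alas2, a defining erythroid marker on the X chromosome and so outside the test, read at most 10.3 units in mutant bcCML. The summed intensity of the erythroid list was 9302 to 11176 units in mutant AML and 38717 to 46099 in mutant bcCML, and of the megakaryocyte list 2972 to 6054 and 24043 to 42967. The sums of the groups did not overlap for either list.

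Regulators of these lineages did not move as a block: of 17 measured, 7 were higher, 6 lower and the median was -0.06. The lower count was 3 without mutant AML array 3 or mutant bcCML array 2 or 3. Tal1, a master factor of blood formation, read 4.82, 7.99 and 7.26 in mutant AML and 2081, 1285 and 2290.1 in mutant bcCML, at least 114-fold higher (adjusted p = 3.35e-09, limma). Gata2, a factor of stem, mast and megakaryocyte cells, read 881, 187 and 530.4 and 15305, 14650.1 and 15490.00 (difference 5.09 ± 0.77, adjusted p = 0.000386, limma). Klf1, the erythroid Krüppel-like factor, read 9.9, 9.87 and 6.93 and 724, 715 and 382, at least 36.4-fold higher (adjusted p = 3.78e-07, limma). Gata2 was measured on each of the 6 arrays and did not overlap between the groups. The filter fixed the direction and lack of overlap of 3 of the 17, Tal1 and Klf1 among them, which were not measured on any mutant AML array. Also higher were Zfpm1, the GATA cofactor FOG1, by at least 8.62-fold (adjusted p = 1.5e-06, limma), Bcl11a, a repressor of embryonic globin, by 22.9-fold (adjusted p = 4.93e-05, limma), and Ldb1, an adaptor of GATA complexes, by 2.74-fold (adjusted p = 0.00283, limma). Gfi1b read 14.5, 199 and 47 and 481, 336 and 420.5; it was called (difference 2.99 ± 0.85, adjusted p = 0.0161, limma) but not without mutant AML array 1 (adjusted p up to 0.0547), where it differed by 2.08. Without mutant AML array 2 the differences were 3.96 for Gfi1b and 4.47 for Gata2.

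The lower members of the same list are shared with progenitors of other lineages. Lyl1, a relative of Tal1, read 2155, 2673 and 2783 and 633, 1137 and 1111 (difference -1.44 ± 0.30, adjusted p = 0.00319, limma). Lmo2 is given above, and Zbtb7a was lower by -0.85 ± 0.21 (adjusted p = 0.00726, limma). Fli1, Hhex and Mef2c differed by -0.58 ± 0.19, -0.80 ± 0.25 and -0.66 ± 0.23 (adjusted p = 0.0291, 0.0254 and 0.0421, limma). Each of these 3 calls ended under some alternative: Fli1 lost it without mutant AML array 1 or 3 or mutant bcCML array 2 or 3, and Hhex without mutant AML array 3 or mutant bcCML array 2 or 3. Mef2c lost it without any one of 8 arrays, all but wild-type AML arrays 2 and 3, mutant AML array 2 and mutant bcCML array 1. Their adjusted p-values reached 0.0926, 0.1 and 0.16. The lower factors differed by -0.58 to -1.44. The higher ones differed by 1.45 to 5.09, apart from Tal1, Klf1 and Zfpm1, which have only a bound.

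Stem and progenitor genes split, with 12 of 24 measured higher in mutant bcCML and 5 lower, and a median of 1.68. The shares were 50% higher and 20.8% lower, against 23% and 21.8% of all genes. The filter fixed the direction of 3 of the 24 not measured on any mutant AML array. It also fixed that of 1 not measured on any mutant bcCML array. Slamf1, which encodes the stem cell antigen CD150, read 4.5, 4.51 and 4.55 in mutant AML and 239, 232 and 123 in mutant bcCML, at least 11.9-fold higher (adjusted p = 3.21e-06, limma). Thy1, the surface antigen CD90, read 4.52, 4.51 and 4.51 and 1132, 2023 and 2359, at least 109.7-fold higher (adjusted p = 4.63e-07, limma). Mllt3, which encodes the AF9 partner of MLL-AF9, read 15.3, 23 and 16.1 and 1903, 1201 and 2095 (difference 6.56 ± 0.42, adjusted p = 7.99e-07, limma). These 3 genes were at or near the floor of measurement in mutant AML. Prom1, which encodes CD133, had the reverse pattern, at 3682, 1676 and 1566 and 4.51, 4.51 and 4.52, at least 133-fold lower in mutant bcCML (adjusted p = 3.21e-06, limma). Flt3, a receptor tyrosine kinase of early progenitors, read 147, 16.6 and 42.5 and 270.4, 109 and 120.05, a difference of 1.70 ± 0.77 that did not pass the test (adjusted p = 0.0983, limma).

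Listed markers of other cell types were sparse. Only 5 of 26 listed T and NK genes were measured, 2 of them higher and 1 lower. The higher ones were Lat and Thy1, and Thy1 is also counted among the stem and progenitor genes above. Thy1 was not measured on any mutant AML array, so the filter fixed its direction. The lower count was 2 without wild-type AML array 2, mutant AML array 3 or wild-type bcCML array 1, and 0 without mutant AML array 1 or mutant bcCML array 1. Lat, a T cell and platelet adaptor, read 73.8, 8.04 and 25.7 and 2379, 2228 and 2111 (difference 6.50 ± 0.65, 7.28 without mutant AML array 1 and 5.68 without array 2, adjusted p = 2.28e-05, limma), whereas the defining T and NK markers Cd3e and Ncr1 read at most 9.53 and 4.52 units on any mutant array. Of 5 measured B cell genes 1 was higher and 2 were lower. The higher one, Cd72, read 19.8 to 24.9 and 60.6 to 515 (adjusted p = 0.0402, limma), and its call ended without wild-type AML array 1, any mutant AML array, wild-type bcCML array 3 or mutant bcCML array 1 (adjusted p up to 0.143). Its difference was 2.62, and 1.64 without mutant bcCML array 1. Ighm, the heavy chain of IgM, read 524, 311 and 644 and 5.2, 13.9 and 5.01, at least 29.5-fold lower in mutant bcCML (adjusted p = 2.5e-05, limma), while the defining marker Cd79a stayed near the measured limit at 21.6, 26 and 21.6 and 18.8, 16.7 and 13.7. The summed intensity was 5653 to 8615 and 13051 to 14411 units for T and NK genes, and 925 to 1332 and at most 611 for B cell genes, in mutant AML and mutant bcCML. Trgv4, a segment of a T cell receptor locus, and Tox, a factor of T cell development, are given below and were bright on each mutant bcCML array. The T and NK gene called lower was Cd247, at 180, 95.4 and 80.1 and 23.9, 52.1 and 71.1 (difference -1.32 ± 0.43, adjusted p = 0.0285, limma). Among lymphoid factors Bcl11b was also lower, at 410, 257 and 628 and 99.8, 206 and 176. Bcl11b differed by -1.40 ± 0.38 (adjusted p = 0.0132, limma). Neither call held without mutant bcCML array 1. Prf1, not called, differed by -0.61 to -0.40 over the alternatives. The part of T, NK and B cells in the results was not tested.

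Of 11 measured mast cell, basophil and eosinophil genes 3 were higher and 2 lower, 1 of them without mutant AML array 1 or mutant bcCML array 3. The shares of 27.3% higher and 18.2% lower were near the 23% and 21.8% of all genes. Gzmb, granzyme B, read 4.52, 4.51 and 4.51 in mutant AML and 5510.1, 5443 and 3344 in mutant bcCML, at least 290.4-fold higher (adjusted p = 3.09e-09, limma). Gzmb is not particular to these cells, and the filter fixed its direction, since it was not measured on any mutant AML array. Ms4a2, a subunit of the IgE receptor, read 45.3, 9.19 and 43.6 and 2148, 2477 and 712 (difference 5.89 ± 0.69, 5.13 without mutant AML array 2, adjusted p = 7.2e-05, limma). The defining markers overlapped between the groups: Mcpt8 read 2036, 714 and 582 and 362, 1796 and 45.6 (adjusted p = 0.309, limma), and Cpa3 319.6, 8.4 and 58.9 and 89.4, 414 and 8.26 (adjusted p = 0.898, limma). The summed intensity of the list overlapped between groups, at 12529 to 15358 and 9729 to 19862 units. So did that of 11 dendritic cell and MHC class II genes, at 7011 to 11642 and 8534 to 10241, of which 1 was higher (2 without mutant AML array 1) and 2 were lower. Stroma and endothelium genes were lower in 5 (50%) and higher in 1 (10%) of 10 measured, with sums of 3517 to 6843 and 295 to 568 units. The filter fixed the direction of 3 not measured on any mutant bcCML array and of 1 not measured on any mutant AML array. The sums include Vcam1, given below, and Fn1, at 122, 3823 and 1432 in mutant AML and 15.1, 16.1 and 35.2 in mutant bcCML. The part of stroma cells in these sums was not tested. The defining markers Col1a1, at 215, 33 and 51.2 and 42.6, 30.5 and 32.5, and Cdh5, at most 4.54 units on any mutant array, gave no call.

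**Figure D2:**
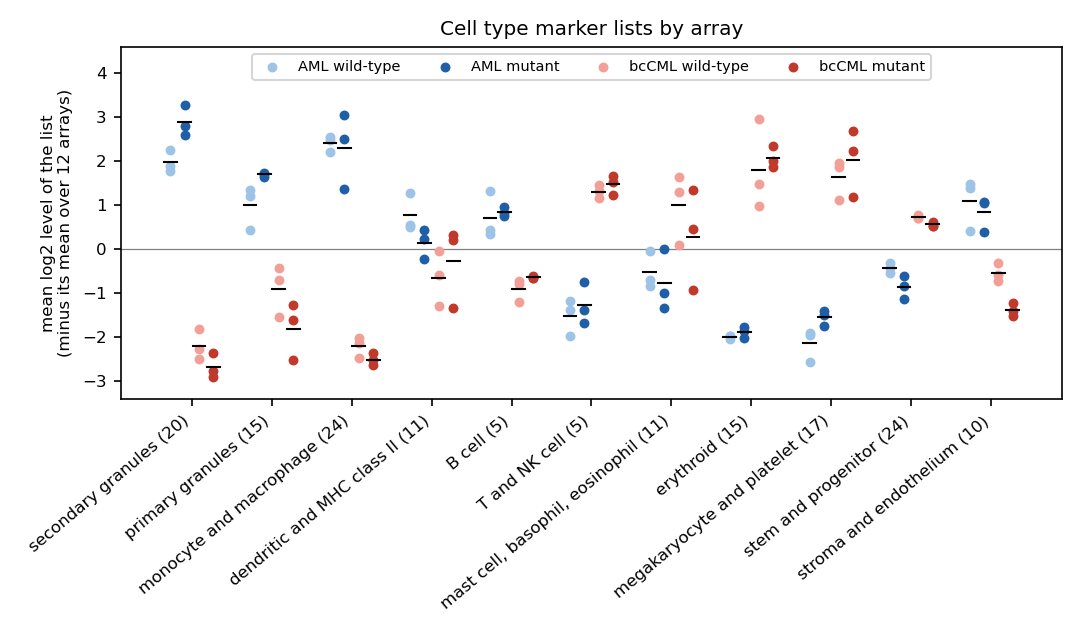
Level of 11 marker lists on each of the 12 arrays, as the mean over measured members of log2 intensity minus its mean over the 12 arrays; points are arrays and bars are group means. Granule and monocyte lists lie above 0 in AML and below 0 in bcCML, erythroid and megakaryocyte lists the reverse, and mutant AML array 1 has the lowest monocyte level of its group, 1.37 against 3.05 and 2.51.

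Cytokine receptors were more often lower than higher in mutant bcCML: 14 against 5 of 31 measured, with a median of -0.97. Besides Csf1r, Il6ra, the interleukin-6 receptor chain, read 1393, 4021 and 1934 in mutant AML and 136, 74.7 and 118 in mutant bcCML (difference -4.38 ± 0.35, adjusted p = 4.73e-06, limma). Il2ra, the interleukin-2 receptor chain CD25, was among the higher ones, at 4.5, 4.54 and 4.58 and 876, 2324 and 1467, at least 90.02-fold (adjusted p = 4.59e-07, limma). Il18r1, the interleukin-18 receptor, read 14.1, 7.97 and 7.97 and 690.3, 1056 and 1923, at least 69.95-fold higher (adjusted p = 4.86e-07, limma). Neither Il2ra nor Il18r1 was measured in mutant AML. The interleukin-3 receptor chain Il3ra read 59.3, 88.8 and 109 and 75.7, 67.3 and 118, with overlapping groups (difference 0.02 ± 0.27, adjusted p = 0.96, limma). Its partner Csf2rb was lower by -0.53 ± 0.15 (adjusted p = 0.0164, limma), a call that ended without mutant AML array 2 or mutant bcCML array 2 or 3 (adjusted p up to 0.0921).

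Adhesion genes were called at shares near those of all genes, 7 of 29 measured higher (24.1%, against 23%) and 8 lower (27.6%, against 21.8%). Vcam1, a cell adhesion molecule that binds integrins, read 2562, 945 and 2648 in mutant AML and 8, 4.58 and 7.55 in mutant bcCML, at least 116-fold lower (adjusted p = 1.84e-06, limma). Itgb5, an integrin chain, was at least 18.3-fold lower (adjusted p = 9.98e-07, limma). Cd44, the hyaluronan receptor, was bright in both, at 7411, 12860.3 and 9053 and 4939, 2440.4 and 3506 (difference -1.45 ± 0.26, adjusted p = 0.00122, limma). Cxcr4, the receptor for the marrow chemokine Cxcl12, read 11592, 11987 and 14746 and 10598, 7583 and 6175, lower by -0.68 ± 0.21 (adjusted p = 0.0215, limma), and lost its call without mutant AML array 3 or mutant bcCML array 2 or 3 (adjusted p up to 0.0878). Of 15 measured chemokine and chemoattractant genes 4 were lower and 1 higher, and both counts were 2 without mutant bcCML array 3. C5ar1, the receptor for complement C5a, read 9656, 16389.6 and 10693 and 384, 530.3 and 209 (difference -5.09 ± 0.47, adjusted p = 1.26e-05, limma). Ccl5, the one higher, read 5.19, 6.47 and 5.14 and 535, 392.15 and 872, at least 35.5-fold (adjusted p = 5.83e-06, limma).

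Of 19 measured genes studied around Musashi-2 in leukaemia, 3 were higher (15.8%, against 23% of all genes) and 6 lower (31.6%, against 21.8%), so that the share called in either direction was close to that of all genes. Tspan3, a tetraspanin of the cell surface, read 6.92, 20.6 and 30.3 in mutant AML and 143, 185 and 219.6 in mutant bcCML, higher by 3.47 ± 0.46 (adjusted p = 0.000162, limma), or 2.85 without mutant AML array 1. Numb, the Notch inhibitor, read 656, 439 and 337 and 149.9, 159 and 166, lower by -1.54 ± 0.27 (adjusted p = 0.000959, limma). Notch1 was lower too, at 1823, 1153 and 1190.3 and 106, 162 and 178 (difference -3.22 ± 0.40, adjusted p = 0.000107, limma). The groups did not overlap for any of these 3 genes. The oncofetal RNA-binding genes Igf2bp3 and Lin28a were measured in mutant AML and at or near the limit in mutant bcCML. Igf2bp3 read 3311, 2758 and 1252 and 14.4, 12.9 and 13.8, at least 141-fold lower (adjusted p = 4.68e-08, limma), and Lin28a read 891, 375 and 514 and 25, 15.7 and 19.4 (difference -4.82 ± 0.30, -5.45 with the mean of its probe sets, adjusted p = 6.62e-07, limma). Myc was not called, at 406, 450.1 and 1351 and 1089, 1094 and 519, with mutant AML array 3 the highest of all 6 (difference 0.44 ± 0.45, adjusted p = 0.465, limma).

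Bcat1, the cytosolic transaminase that acts on branched-chain amino acids, read 7.57, 7.85 and 7.76 units in mutant AML and 181, 817 and 279.9 in mutant bcCML, at least 21.6-fold higher (adjusted p = 5.95e-05, limma). It was below the measured range in mutant AML, and mutant bcCML array 2 read highest. Of 21 measured genes of branched-chain amino acid use and transport 10 were higher and 3 lower, with a median of 0.65. The transporter subunits Slc7a5 and Slc3a2 were higher by 1.83 ± 0.18 (adjusted p = 2.09e-05, limma) and 1.37 ± 0.19 (adjusted p = 0.000206, limma). Bckdha, a subunit of the enzyme that commits the keto acids to breakdown, was lower, at 239, 143 and 85 and 39.8, 17.9 and 26.1 (difference -2.43 ± 0.39, adjusted p = 0.00063, limma).

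Wnt and hedgehog genes were called in both directions, 4 of 14 measured higher (28.6%, against 23% of all genes) and 5 lower (35.7%, against 21.8%). The lower count was 2 without mutant bcCML array 2 or 3, and 3 without wild-type AML array 1, mutant AML array 1 or 2, wild-type bcCML array 1 or 2, or mutant bcCML array 1. The frizzled receptors, which bind Wnt proteins, opposed each other: Fzd6 read 4.51, 11.4 and 10.2 and 65.1, 71.6 and 73.6, at least 4.37-fold higher in mutant bcCML (adjusted p = 0.000727, limma), and Fzd7 248, 355 and 338 and 61.5, 111 and 60.6, lower by -2.06 ± 0.31 (adjusted p = 0.000366, limma). Sufu, a restraint on hedgehog signalling, was higher by 1.16 ± 0.18 (adjusted p = 0.000574, limma). Among lymphoid factors 3 of 16 measured were higher, 5 without wild-type bcCML array 1, and 5 lower, 3 without mutant AML array 3 or mutant bcCML array 1. Their shares were 18.8% higher and 31.2% lower, against 23% and 21.8% of all genes. Tox, a nuclear factor of T cell development, read 7.57, 10.5 and 20.9 and 2226, 2216 and 2271 (difference 7.56 ± 0.34, 4.67 with the mean of its probe sets, adjusted p = 6.33e-08, limma). Ikzf3, an Ikaros relative of B cells, read 109, 338 and 197 and 8.7, 18.3 and 4.63 (adjusted p = 7.9e-05, limma), with 1 of 3 mutant bcCML arrays above 16 units. Tcf12, an E protein, was higher by 1.40 ± 0.18 (adjusted p = 0.000131, limma), and Id2, which blocks E proteins, lower by -2.56 ± 0.62 (adjusted p = 0.00721, limma).

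Growth genes of the nucleolus and of Myc moved together in mutant bcCML: 30 of 34 measured were higher and 0 lower, with a median of 1.01 against 0.03 over all genes. Rcl1, a ribosome assembly protein, read 113, 166 and 187 in mutant AML and 779, 877 and 674 in mutant bcCML (difference 2.34 ± 0.21, adjusted p = 1.22e-05, limma). Gnl3, which encodes nucleostemin, read 1909, 2350.3 and 2848 and 6738, 6865 and 6337 (difference 1.51 ± 0.15, adjusted p = 2.71e-05, limma). Odc1, the first enzyme of polyamine synthesis, was higher by 1.72 ± 0.23 (adjusted p = 0.000186, limma) and Cad, an enzyme of pyrimidine synthesis, by 1.77 ± 0.19 (adjusted p = 4.62e-05, limma). Each of these 4 genes was higher on each mutant bcCML array than on any mutant AML array. The differences of these 4 genes, from 1.51 to 2.34, were smaller than those of the granule and platelet genes named above.

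Cholesterol synthesis genes were higher in 10 and lower in 2 of 21 measured, with a median of 0.68. Only 1 was lower without wild-type AML array 1, any mutant AML array, wild-type bcCML array 3 or mutant bcCML array 1 or 2. Idi1, an isomerase of the mevalonate pathway, read 372, 413 and 458 and 2236, 1956 and 2490.3 (difference 2.42 ± 0.28, adjusted p = 6.81e-05, limma), and Lss, which forms lanosterol, 118, 63.7 and 57.6 and 281, 358 and 332 (difference 2.09 ± 0.24, adjusted p = 6.13e-05, limma). Of 49 measured respiratory chain genes 18 were higher and 0 lower, with a median of 0.26, and the higher count was 10 without mutant AML array 3 or mutant bcCML array 2. Ndufv1, a complex I subunit, was higher by 1.32 ± 0.13 (adjusted p = 2.67e-05, limma). In glycolysis and its relatives 9 of 26 were higher and 7 lower. Ldhb, a lactate dehydrogenase chain, read 2844, 1568 and 955 in mutant AML and 12.1, 9.38 and 11.8 in mutant bcCML, at least 101-fold lower (adjusted p = 1.11e-07, limma). Fbp1, an enzyme of gluconeogenesis, read 3167, 1109 and 1536 and 7.26, 10.2 and 25.2 (difference -7.16 ± 0.51, adjusted p = 1.89e-06, limma). Hk3, a hexokinase of myeloid cells, was lower by -6.38 ± 0.64 (adjusted p = 2.43e-05, limma).

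Genes of cell division were seldom called. Of 41 measured mitosis genes 0 were higher and 2 lower, and without mutant AML array 1, 5 were higher. Without other arrays the lower count was 4 (mutant AML array 2), 1 (wild-type AML array 1, mutant AML array 1 or mutant bcCML array 2) or 0 (mutant bcCML array 1 or 3). The mean level of the list, set against its mean over 12 arrays on the log2 scale, was 0.74, -0.38 and -0.10 on the mutant AML arrays and -0.35, 0.11 and 0.06 on the mutant bcCML arrays, highest on mutant AML array 1. DNA replication genes were called in 3 of 39 in each direction, well under the background of 44.8%. Rfc2, a clamp loader subunit, was higher by 0.84 ± 0.18 (adjusted p = 0.00378, limma), and Cdc45, a helicase component, lower by -1.35 ± 0.32 (adjusted p = 0.00592, limma).

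Some brakes on the cell cycle were called. Cdkn2a, the locus of p16 and p19Arf, read 14.6, 28.8 and 26.1 in mutant AML and 94.2, 189 and 285 in mutant bcCML (difference 2.95 ± 0.42, adjusted p = 0.000267, limma). Its neighbour Cdkn2b read 7.51, 7 and 7.28 and 37, 84.9 and 126, at least 4.58-fold higher (adjusted p = 4.8e-05, limma). Both were lowest on mutant bcCML array 1 within their group and still above each mutant AML array. Cdkn2d was lower by -0.85 ± 0.16 (adjusted p = 0.00149, limma). Over the list of cyclins and inhibitors 4 of 21 were higher and 8 lower. Of 19 measured p53 targets 8 were higher and 2 lower, the latter 1 without mutant AML array 2 or 3 or any mutant bcCML array. Perp, a membrane protein induced by p53, read 22.2, 13.8 and 10.1 and 3792, 2577 and 2886 (difference 7.71 ± 1.04, adjusted p = 0.000185, limma). Zmat3, a zinc finger target, read 59.7, 239 and 162 and 2789, 2116 and 2832 (difference 4.27 ± 0.48, adjusted p = 5.52e-05, limma), and Sesn1, a stress-response protein, was higher by 1.90 ± 0.16 (adjusted p = 5.86e-06, limma).

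Among genes of the Bcl2 family and inhibitors of apoptosis, Bcl2 was the one higher gene of 13 measured and 3 were lower, 5 without mutant AML array 1. Bcl2l11, which encodes the death protein Bim, read 1145, 707 and 647 and 171, 117 and 62.2 (difference -2.91 ± 0.41, adjusted p = 0.000258, limma). Bid, another promoter of cell death, read 1461, 1451 and 1566 and 728, 773 and 667 (difference -1.05 ± 0.14, adjusted p = 0.000147, limma). The remaining lower one was Birc3, an inhibitor of apoptosis, at 768, 1883 and 831 and 515, 431 and 449 (difference -1.20 ± 0.30, adjusted p = 0.00894, limma). The called genes thus held survival and death genes among the lower ones, and the arrays did not overlap for any of these 4 genes. Immediate early and MAP kinase feedback genes were lower in 9 and higher in 2 of 25, the latter 4 without mutant AML array 2 or mutant bcCML array 1. Zfp36, which destabilises cytokine RNAs, read 554, 1398 and 576 and 217, 50.1 and 64.6 (difference -3.10 ± 0.62, -3.75 without mutant bcCML array 1, adjusted p = 0.00231, limma). Ier2 was lower by -2.01 ± 0.37 (adjusted p = 0.00132, limma). Mutant AML array 1 had the lowest level of this list in its group, -0.22, 1.22 and 0.46 in array order, against 0.03, -0.51 and -0.56 in mutant bcCML.

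Interferon response genes gave a count that moved with single arrays: 5 of 31 measured were higher and 2 lower. Leaving out 1 array gave 11 higher (wild-type AML array 2), 2 (mutant AML array 3) or 3 (mutant bcCML array 3). The lower count was 0 without mutant AML array 2 or 3 or mutant bcCML array 1 or 3, and 1 without wild-type AML array 3, any wild-type bcCML array or mutant bcCML array 2. Bst2, tetherin, read 297, 497 and 355 and 722, 1362 and 993, higher by 1.41 ± 0.38 (adjusted p = 0.0118, limma), and Gbp2, a guanylate-binding protein, by 2.53 ± 0.59 (adjusted p = 0.00566, limma). Polycomb genes were called at shares near those of all genes, 4 of 16 higher (25%, against 23%) and 3 lower (18.8%, against 21.8%). Cbx6, a chromodomain subunit, read 162, 65.9 and 128 in mutant AML and 4198, 5178 and 4633 in mutant bcCML (difference 5.39 ± 0.66, adjusted p = 9.59e-05, limma). Its relative Cbx8 read 57.7, 45.7 and 57.5 and 17.1, 17.5 and 10.6, lower by -1.86 ± 0.27 (adjusted p = 0.0003, limma), and Phc1, another subunit, was higher by 2.62 ± 0.36 (adjusted p = 0.000208, limma).

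**Figure D3:**
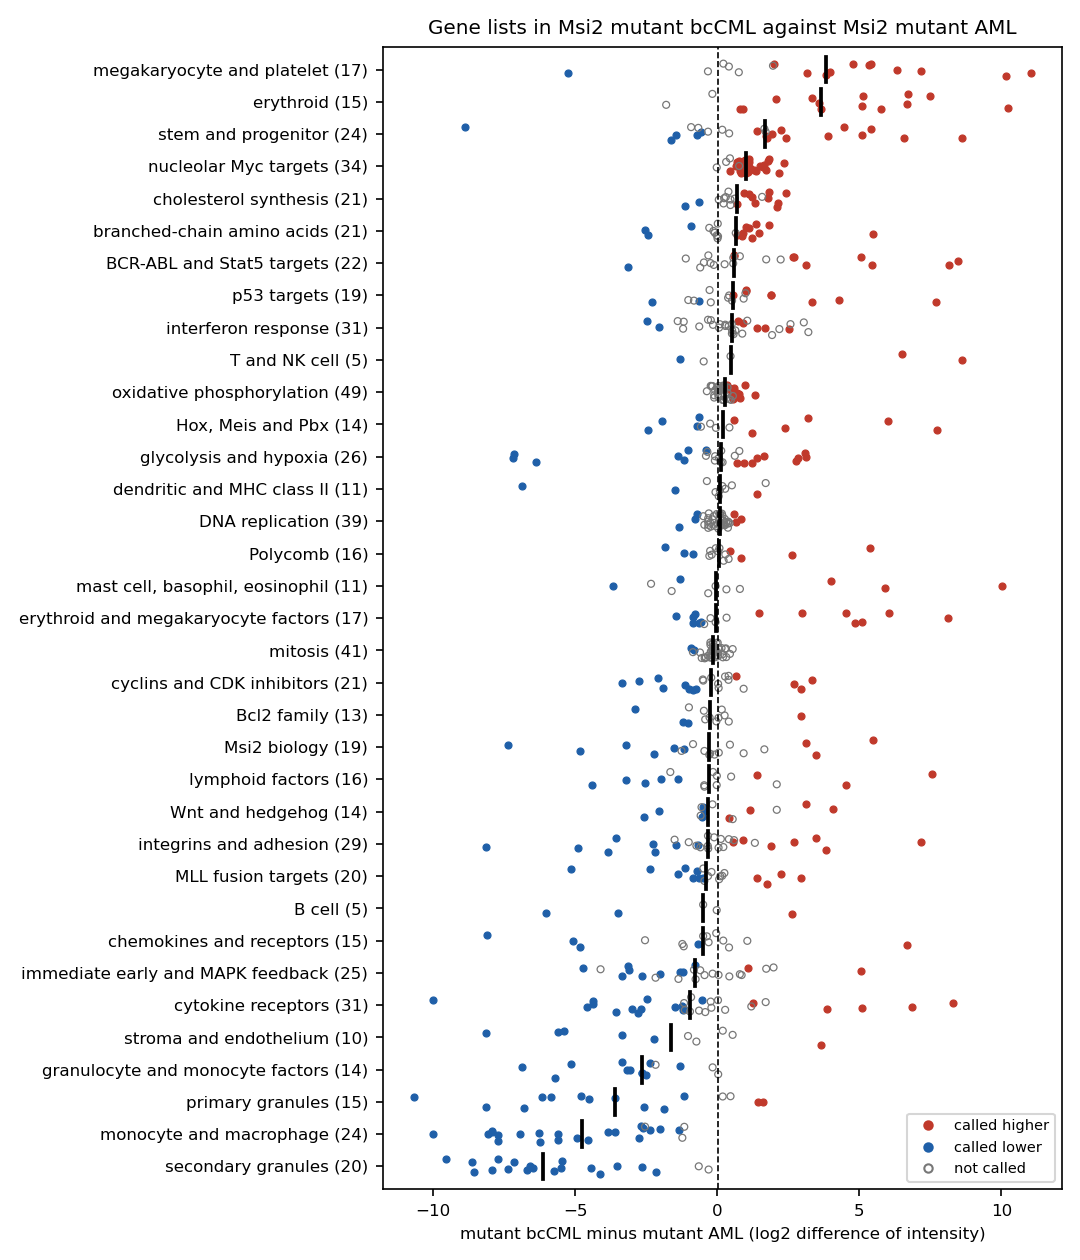
Log2 difference, mutant bcCML minus mutant AML, of each measured member of the 35 gene lists; red points were called higher, blue points called lower, open grey points not called, black bars are list medians and the dashed line is the median of all genes. The list medians run from -6.13 for secondary granules to 3.83 for megakaryocyte genes, and mitosis and DNA replication members lie around 0. The list labelled Bcl2 family also holds Birc3, an inhibitor of apoptosis.

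Outside the lists, some of the brightest genes of one leukaemia were not measured in the other. Apoa1, an apolipoprotein of high-density lipoprotein, read 15.6, 15.7 and 15.6 in mutant AML and 13062, 19169 and 25372 in mutant bcCML, at least 1158-fold higher (adjusted p = 6.56e-10, limma). Trgv4, a variable segment of the T cell receptor gamma locus, read 4.52, 4.5 and 4.52 and 12476, 12982 and 14546, at least 832-fold higher (adjusted p = 5.71e-12, limma). Ctla2a, a cysteine protease inhibitor, was at least 846-fold higher (adjusted p = 2.49e-11, limma), and Khdc1a at least 612-fold (adjusted p = 1.31e-08, limma). In all 4 the mutant AML arrays were at or below 16 units, and Apoa1 sat just under that limit. In the other direction, Penk, the enkephalin precursor, read 1859.6, 4142 and 3845 and 4.56, 4.57 and 4.55, at least 193-fold lower in mutant bcCML (adjusted p = 1.03e-07, limma). F10, coagulation factor X, read 4317, 6951 and 4429 and 15, 14.9 and 8.39, at least 319-fold lower (adjusted p = 3.24e-08, limma). Apoc2, another apolipoprotein, was at least 213-fold lower (adjusted p = 9.41e-07, limma) and Tctex1d1 at least 193-fold (adjusted p = 1.89e-08, limma).

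Among genes whose geometric mean was above 16 units in both groups and whose arrays did not overlap, the largest rises besides Socs2, Car2, Lat and Mllt3 were those of Dnajc6, Aff3, Adgrg1, Prxl2a, Trim9 and Lgals3bp, with differences of 6.21 to 7.63. Dnajc6, a clathrin uncoating cofactor, read 38.9, 4.52 and 62.1 and 5048, 4156 and 4023 (difference 7.63 ± 0.83, 6.48 without mutant AML array 2 and 8.37 without array 3, adjusted p = 4.16e-05, limma). Aff3, a nuclear protein of the AF4 family, read 64.4, 13.2 and 19 and 3342, 2390.1 and 3866 (difference 6.95 ± 0.50, 7.63 without mutant AML array 1, adjusted p = 2.14e-06, limma). Adgrg1, the adhesion receptor GPR56, read 64.4, 16.3 and 27.4 and 2959, 2354 and 2626 (difference 6.43 ± 0.47, adjusted p = 2.22e-06, limma). All 3 were scattered on the mutant AML arrays near the limit of measurement and close together in mutant bcCML. The largest falls besides Camp, Ngp, Chil3 and Igsf6 were those of Stfa2l1, Slfn4, Trem3, Sgms2, Pilra and Pram1, from -8.99 to -7.49. The order among these genes is uncertain, since those of Prxl2a, Igsf6, Sgms2, Stfa2l1 and Pilra moved by over 1.5-fold without 1 array and that of Trim9 to 4.44 with the mean of its probe sets. Slfn4, a Schlafen gene of myeloid cells, read 7914, 21339 and 12463 and 41.8, 59.3 and 24.1 (difference -8.36 ± 0.64, adjusted p = 3.42e-06, limma), and Trem3, a myeloid receptor, 6418, 5589.7 and 5093 and 15.2, 36.3 and 12.1 (difference -8.24 ± 0.72, adjusted p = 8.99e-06, limma). Probe sets of closely related genes, among them Stfa2l1, Khdc1a and Lyz1, can share signal, which was not tested.

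Most of these differences were also present between the wild-type leukaemias, which share no array with the mutant ones. The 2 sets of calls are not independent, since both used the same estimate of spread for each probe set. The probe sets were also filtered on the mutant arrays only. There 1689 genes were higher in bcCML (16.8%) and 1890 lower (18.8%), 35.6% in either direction. Of the 4510 genes called in the mutants, 3025 (67.07%) were called with the same sign in the wild types, as were 84.52% of the wild-type calls in the mutants. Counted without a call, 4404 of the 4510 had the same sign. Across genes, which are not independent replicates, the differences correlated at 0.93 (Pearson) and 0.85 (Spearman). Among genes called in the mutants 77.01% had the larger difference in the mutants, and among genes called in the wild types 55.71% did, each set being chosen on 1 of the 2 differences. Tubb2a and Zfp938 were called with opposite signs.

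The difference between these 2 differences was tested gene by gene as an interaction. No gene passed (limma, 0 of 10062), with 942 (9.36%) at an unadjusted p under 0.05, and 1 of 17954 probe sets (0.00557%) did. Tubb2a, a beta tubulin, was higher in mutant bcCML by 0.54 ± 0.19 and lower in wild-type bcCML by -1.45 ± 0.19, an interaction of 1.99 ± 0.27 (adjusted p = 0.064, limma). It read 249, 339 and 193 in mutant AML, 375, 355 and 378 in mutant bcCML, 874, 963 and 791 in wild-type AML and 299.7, 329 and 333 in wild-type bcCML. Its mutant call ended without any one of 8 arrays, all but wild-type AML arrays 2 and 3, mutant AML array 2 and wild-type bcCML array 1 (adjusted p up to 0.175). Fbp1 differed by -7.16 in the mutants and -2.56 in the wild types (interaction -4.60 ± 0.72, adjusted p = 0.0786, limma), with 1 of 3 mutant bcCML arrays above 16 units. Prom1, at least 133-fold lower in the mutants, read 322, 963 and 229.97 in wild-type AML and 44.5, 22.6 and 6.75 in wild-type bcCML, and its interaction (adjusted p = 0.173, limma) has no measured size. Cd34 differed by 2.41 and 0.00 (interaction 2.40 ± 0.96, adjusted p = 0.494, limma). For Cd34 the wild-type arrays overlapped, at 1602, 304 and 1800.3 in AML and 1047, 813 and 1039 in bcCML. The granule lists had a lower median in the mutants, -3.60 against -1.16 for primary and -6.13 against -4.20 for secondary granules, a difference between medians that was not tested.

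**Figure D4:**
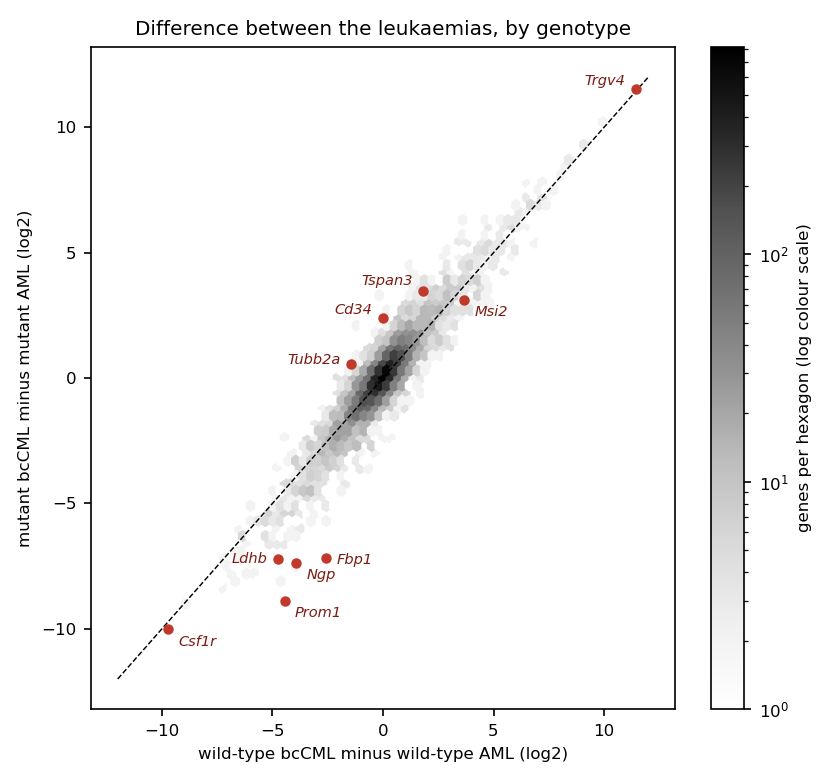
Log2 difference between bcCML and AML in the wild types (x axis) and in the mutants (y axis) for 10062 genes, shaded by the number of genes per hexagon; the dashed line marks equal differences, and named genes are labelled. Values at the floor are plotted as deposited, so points such as Csf1r, Trgv4 and Prom1 have only a bound. Most genes lie along the line, Csf1r and Trgv4 at its ends, while Fbp1, Prom1 and Ngp lie below it and Cd34, Tubb2a and Tspan3 above it.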

How the data were processed

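RNA of 12 samples, 4 groups of 3, was hybridised to Affymetrix arrays. Each deposited intensity is the authors' summary of a probe set by GCRMA, a method named in the submitters' processing notes and credited per the labels, which normalises all arrays together, adjusts for background by probe sequence and leaves dim probe sets at a common floor. The version and settings of GCRMA are not given in the sources used here. The log2 of the deposited intensity was computed here, with no pseudocount. Sex-linked probe sets, probe sets of several symbols (932) and unlisted ones (9160) were left out. Of the 34945 probe sets with 1 symbol, 34741 matched a RefSeq gene.

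Probe sets above log2 of 4 (16 units) on at least 3 of the 6 mutant arrays entered a limma (3.58.1, R 4.3.3) model of all 12 arrays as 4 groups of 3 (8 residual degrees of freedom), two-sided, with Benjamini-Hochberg adjustment over 17954 probe sets and a threshold of 0.05. Contrasts were mutant bcCML minus mutant AML, the same in wild types, and the difference between them. The fit was tested on simulated data. The number of arrays limits the precision. Where all 3 arrays of a group were at or below 16 units, a fold was the geometric mean of the other group over 16 units.

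Genes named were the 10 largest rises and falls with both group means above log2 of 4 and no overlap, the 8 brightest in each direction not measured in the other group, a fixed set of 32 genes (29 tested), from each list at most 4 members by smallest p, called members of the transcription factor lists, genes called with opposite signs in the 2 genotypes, and defining cell type markers. Lcn2 is shown for its promoter match. The members and the 35 lists (896 genes, 657 tested) were chosen with earlier results of these data known. The alternatives covered filters, log scale, normalisation, probe sets per gene, moderation, the replicate block and leaving out each array.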

Additional observations from a re-analysis of the deposited data

Results flagged for a closer look

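The difference between bcCML and AML differed between the genotypes for 1 probe set of 17954, a probe set of Rsad1, a gene on chromosome 11, as Msi2 is. It read 35.0, 23.9 and 39.9 units on mutant bcCML arrays 1, 2 and 3 and 4.51 to 5.17 units on the other 9 arrays. Since these 9 were below 16 units, the probe set was at least 2.01-fold higher in mutant bcCML than in mutant AML, and the fitted interaction of 2.69 ± 0.25 (adjusted p = 0.00925, limma) rests on floor values and is no measure of size. The call ended with the replicate block (adjusted p = 0.0668), with 16 units added before the log (1.21, adjusted p = 0.101), and without wild-type AML array 1 (0.0603) or wild-type bcCML array 1 (0.0548) or 3 (0.053).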

How the results depend on the processing

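The count of 4510 genes called ranged from 3693 to 4698 over the alternatives, and 3653 of those called without mutant bcCML array 2, where it was lowest, were among the 4510. The 6 mutant arrays fitted alone gave 3996, of which 3839 were shared, and 4028 when mutant AML array 1 was also left out, an alternative chosen after seeing the data. The share of calls that were higher ran from 49.18% to 56.1%, and centring on bright probe sets moved the median of all genes to 0.10. The number of genes called in the interaction, 0, became 5 with no filter, 3 with the filter over all 12 arrays, 3 after quantile normalisation, 1 after either centring, 2 with the mean of a gene's probe sets and 3 with an intensity trend, and 0 to 7 on leaving out 1 array. Replicate numbers did not pair the mutant arrays of the 2 leukaemias: same-numbered ones correlated at 0.046, -0.057 and -0.099 in their deviations from the group means. Those of unlike number ran from -0.049 to 0.14, the highest for mutant AML array 3 with mutant bcCML array 2. Pairing of wild-type with mutant arrays was not checked in this way. The replicate block called 4460 genes, 4302 of them shared. Of 176 named genes called, 150 kept their call in each alternative that tested them (28, or 27 for Cma1 and Col1a2, which the filter at log2 of 5 left out) and 26 lost it in some, and 7 of the 11 not called passed in some. The difference of Abl1, -0.03, reversed to 0.069 after quantile normalisation, 0.028 and 0.045 after centring on the tested or bright probe sets, and 0.088 without mutant AML array 1 with the 6 mutant arrays alone, and ran from -0.17 to 0.22 on leaving out 1 array. That of Il3ra, 0.02, reversed to -0.22 without mutant AML array 1 (also with the 6 mutant arrays alone) or mutant bcCML array 3. The cause was not tested.

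Signal over background limits the dim genes: at the floor no order can be read, and 579 genes have only a bound on their fold. With 3 arrays in each group, small differences can be missed. Oncogene, sorting gate and sex-linked RNA move together, and mice are not identified in the labels.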

Other observations

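Calls were spread over the autosomes, from 38.8% to 51.9% of the genes of each chromosome, but not always evenly by direction. On chromosome 19, 132 of 371 genes were higher in mutant bcCML and 51 lower, and on chromosome 17, 93 of 524 were higher and 134 lower. These counts were not tested. Of the 2062 called genes with several probe sets, 15 had a probe set called in the opposite direction.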
